A study of Drosophila melanogaster with 14 samples.

Results

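Transposable element (TE) insertions on the Y chromosome were taken from 14 lists of predicted insertions that are absent from the dm6 reference genome of *Drosophila melanogaster*. Members were all records listed on chromosome Y, 837 of 20426 records in all. Another 19432 records lay on X, 2L, 2R, 3L, 3R and 4, called the other chromosomes here, and 157 lay on the mitochondrial genome. All libraries came from 1 line, marked with w and carrying transgenes. In it tj-GAL4 drives the hairpin sh-piwi in the somatic follicle cells of the ovary, and the temperature-sensitive repressor tubP-GAL80[ts] holds it back. The 1 piwi-sKD pool and the 12 piwi-sKD single adult flies are labelled 25°C, with 20°C until the last 5 days, while the 1 no-KD pool of 3 to 17 h embryos was kept at 20°C and carries the same transgenes. The piwi-sKD pool is labelled as adult fly, whereas the methods of the study describe embryos of a later generation. By the study, the 12 single flies were also of a later generation than the females that were shifted. Each pool was 1 library of many animals, and the labels give neither the sex of any animal nor the age of the flies, so flies were not divided by sex.

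The Y chromosome of *Drosophila* is passed from father to son and does not recombine. It is mostly heterochromatin, rich in satellite repeats and TE remnants, and holds few protein-coding genes, several of them needed for sperm formation. It also carries the Su(Ste) repeats, which produce piRNAs against the X-linked Stellate genes in the testis. TEs move as retrotransposons through RNA, with long terminal repeats (LTR; all such families are called ERV here, as in the study) or without them (non-LTR), or as DNA transposons by cut and paste.

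The piwi-sKD pool held 351 Y records, the 12 flies together held 184, and the no-KD pool held 302. Y records were 6.99% of the piwi-sKD pool (95% Wilson interval 6.32 to 7.73), 1.70% ± 0.277 of a single fly (SD, n = 12) and 7.06% of the no-KD pool (6.33 to 7.86). The intervals cover counting error only. Each fly held 8 to 19 Y records, with a median of 16, and Y shares ran from 1.38% to 2.24%. Every fly lay below both pools, and the interval of no fly reached those of the pools. The mean fly held 4.37% as many Y records as the piwi-sKD pool, whereas for the other chromosomes it held 15.3% (2R) to 22.2% (2L) as many. Set against the no-KD pool, these values were 5.08% for the Y and 18.4% (2R) to 27.4% (chromosome 4) for the others. Pools and flies also differed in the number of animals, the read length (100 and 125 nt), the site of preparation and the BWA version. On the other chromosomes, a fly had 1754 to 5800 supporting reads, against 44182 (piwi-sKD pool) and 35751 (no-KD pool). By the methods of the study, both pools were embryos, whereas the flies were adults. Sex is not given, so it is not known which flies carried a Y. None of these can be told apart from the difference in Y share, and none was tested.

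**Figure D1:**
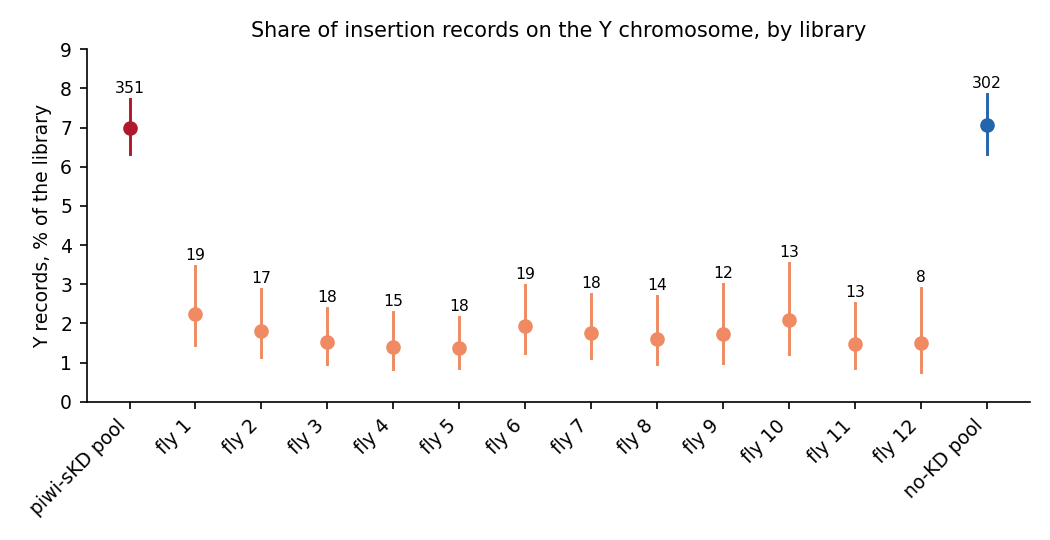
Share of each library's records that lie on the Y chromosome, in percent, with 95% Wilson intervals as vertical lines and the number of Y records above each. The 12 single flies sit between 1.38% and 2.24%, below the piwi-sKD pool at 6.99% and the no-KD pool at 7.06%.

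Across the flies, the number of Y records went up with the number of records on the other chromosomes, which ran from 529 to 1288. Pearson's r was 0.752 (permutation p = 0.00486, adjusted p = 0.00972 over the 2 coefficients) and Spearman's rho was 0.622 (permutation p = 0.0341, adjusted p = 0.0341; n = 12). Without the 2 flies farthest from the median count on the other chromosomes, r was 0.622 (permutation p = 0.0572, n = 10), so the sign held and the call was lost. This relation was computed after the counts had been seen.

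Read support, the number of reads behind a call, is at least 2 in these lists. Y records had a median of 4 reads with piwi-sKD (pool) and 3 with no-KD, and records on the other chromosomes of these pools had a median of 4 in both. In the piwi-sKD pool 26.5% of Y records (22.2 to 31.3) stood at the minimum of 2 reads, against 36.7% of the other records (35.3 to 38.1). In the no-KD pool these shares were 33.1% on the Y and 32.8% elsewhere, with overlapping intervals. In the flies, 53.0% ± 13.5 of Y records and 48.5% ± 4.88 of the other records had 2 reads (SD, n = 12). That difference did not pass the test (4.50 percentage points, higher on the Y in 8 of 12 flies; exact paired permutation test, two-sided, adjusted p = 0.285 over 8 fly-level tests). The deepest Y record had 364 reads in the piwi-sKD pool, 22 reads in any fly and 298 reads in the no-KD pool. The libraries were not brought to equal depth.

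Classes differed between the Y and the other chromosomes of the flies. DNA transposons made up 1.52% ± 2.78 of a fly's Y records and 25.4% ± 1.29 of its other records (SD, n = 12), a difference of -23.84 points that went the same way in 12 of 12 flies (adjusted p = 0.00130, exact permutation test). ERVs made up 46.7% ± 8.34 of Y records and 35.7% ± 1.57 of the others, a difference of 11.01 points, higher on the Y in 11 of 12 flies (adjusted p = 0.00156, exact permutation test). Non-LTR elements made up 51.8% ± 8.78 of Y records and 39.0% ± 1.56 of the others, higher on the Y by 12.8 points in 11 of 12 flies (adjusted p = 0.00156, exact permutation test). The 3 shares of a fly sum to 100%, so they are not independent of each other, and the same Y sites recur in many flies, so the 12 differences share their source. Without the 1 rover site that all 14 libraries listed, in kl-3, ERVs were 37.4% of Y records and 35.7% of the others, which did not pass (1.68 points, higher in 7 of 12 flies; adjusted p = 0.510, exact permutation test). The non-LTR difference was then 21.8 points (12 of 12 flies) and the DNA difference -23.52 points (adjusted p = 9.77e-04 for each, exact permutation test over 12 flies). The smallest p that 12 flies allow, 4.88e-04 before adjustment, was reached for the DNA class.

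In the pools, Y records were spread more evenly over the classes. Of the 351 Y records in the piwi-sKD pool, 142 were ERV (40.5%), 108 non-LTR (30.8%) and 101 DNA (28.8%). Of the 302 in the no-KD pool, 101 were ERV (33.4%), 114 non-LTR (37.7%) and 87 DNA (28.8%). DNA transposons were 23.2% and 23.7% of the records on the other chromosomes of these pools. Of the DNA records on the Y, 90 of 101 and 78 of 87 were 1360, a P-element relative. Without 1360, the DNA class was 4.21% of the piwi-sKD pool's Y records and 4.02% of those with no-KD, against 19.1% and 19.7% of the other records of these pools.

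**Figure D2:**
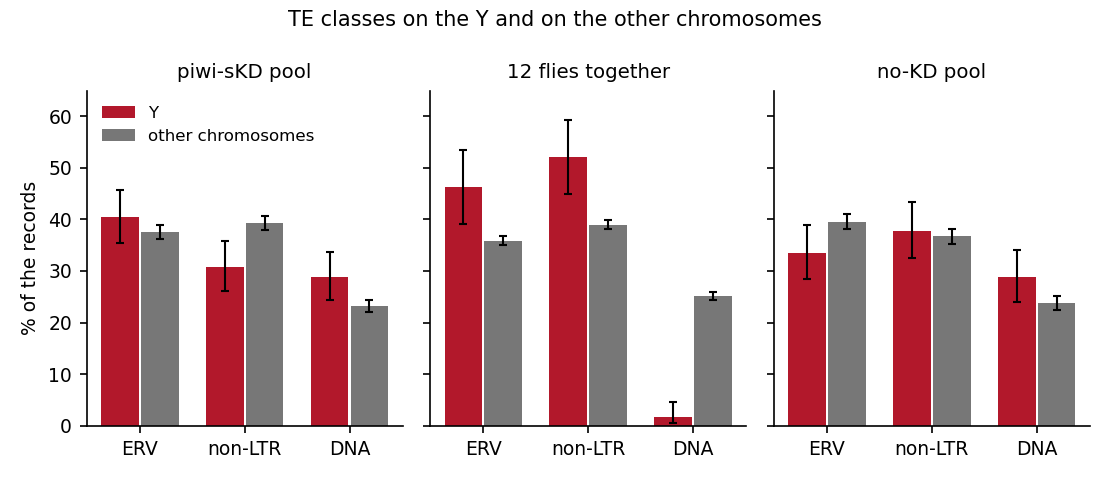
TE classes as percent of the records on the Y (red) and on the other chromosomes (grey) in the piwi-sKD pool, the 12 flies summed, and the no-KD pool, with 95% Wilson intervals. The intervals of the flies count a site again in each fly that lists it. DNA transposons are 28.8% of the Y records in either pool and 1.63% in the flies, where they are 25.2% of the other records.

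Y records came from 69 of the 123 listed families. There were 68 families with a Y record in the piwi-sKD pool, 24 in the flies and 60 in the no-KD pool, of which 59 were in both pools. No family had a Y record in a fly and in neither pool. The 10 families with most Y records held 54.2% of them, 454 records. These were 1360 (171 records), R1A1-element (83), rover (33), copia (29), Doc2-element (27), Doc (25), accord2 (24), G2 (22), F-element (21) and Rt1b (19).

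1360 was the leading family of the Y in the pools and was nearly missing from the Y of the flies. It had 90 Y records in the piwi-sKD pool (25.6%, 21.4 to 30.5), 3 in the flies (1.63%, 0.556 to 4.68) and 78 in the no-KD pool (25.8%, 21.2 to 31.0). On the other chromosomes, it made up 4.97% of the records of the piwi-sKD pool and 4.95% of the no-KD pool, and there the share in flies was 4.42% ± 0.532 (SD, n = 12). Chromosome 4, the other largely heterochromatic chromosome, had a 1360 share of 20.8% in the piwi-sKD pool, 21.1% in the flies and 19.01% in the no-KD pool.

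Other families took a larger share of the Y than of the rest of the genome in both pools. For TART-A, a non-LTR element that maintains telomeres, the Y share over the other share was 17.7 in the piwi-sKD pool (8 Y records and 6 others) and 23.7 in the no-KD pool (9 and 5). For gypsy12, an LTR element, it was 13.3 (8 and 8) and 10.2 (7 and 9). For diver2 it was 3.52 and 3.95, for G2, a non-LTR element, 2.79 and 5.90, and for accord2 3.45 and 2.99. These families were chosen after their ratios had been seen and the counts are small. TART-A, gypsy12, diver2 and G2 had no Y record in any fly. TAHRE and HeT-A, the other telomeric non-LTR families, had ratios of 1.13 and 2.56 in the piwi-sKD pool, and 1.68 and 2.47 in the no-KD pool.

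In the flies, 81 families with at least 20 records were tested for a higher share of Y records than of other records, and 6 passed (7.41% of those tested), the same 6 that had an unadjusted p under 0.05 in that direction. All 24 families with a Y record in a fly were among the 81. Lower shares were not read, since a family with no Y record is below its other share in nearly every fly. The 6 families were R1A1-element, rover, Doc2-element, Osvaldo, accord2 and copia, and they held 141 of the 184 Y records of the flies (76.6%). These records came from few places. Joined within 500 bp, the fly records of R1A1-element and of Doc2-element lay in 5 loci each, those of accord2 in 3, those of rover and of Osvaldo in 2 each, and those of copia in 1.

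R1A1-element, the R1 non-LTR retrotransposon known for inserting into ribosomal RNA genes, led with 59 Y records in 12 of 12 flies, 2 to 7 in each. It made up 23.1% to 40.0% of a fly's Y records, with a median of 32.5%, against 2.20% to 3.34% of its other records. The 2 ranges did not overlap. The means were 31.9% on the Y and 2.87% on the other chromosomes (adjusted p = 7.91e-04, exact permutation test over 12 flies). In the pools it was 3.42% of Y records with piwi-sKD and 3.97% with no-KD, 12 records in each.

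Rover, an LTR retrotransposon, had 27 Y records in the flies, with 2 or 3 in every fly, and 47 on all other chromosomes of the 12 flies. Its share was 10.5% to 25.0% of Y records (median 15.4%) against 0.164% to 0.776% of the others, again with no overlap (means 15.4% and 0.402%; adjusted p = 7.91e-04, exact permutation test over 12 flies). Of the 27 records, 26 were 1 site listed at 2 positions. The difference of 14.97 points was 8.29 points with records of a family within 500 bp merged and 25.9 points at 3 or more reads, passing in both, and 0.119 points (adjusted p of 1, exact permutation test over 12 flies) without this site. The pools listed 3 Y records of rover each. Doc2-element, a non-LTR retrotransposon, had 20 Y records in 11 of 12 flies and a mean of 10.6% of Y records against 0.516% of the others (adjusted p = 0.00139, exact permutation test).

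Osvaldo, accord2 and copia are LTR retrotransposons, each listed on the Y in some flies only. Osvaldo had 12 Y records in 9 flies, with mean shares of 6.70% on the Y and 0.302% elsewhere (adjusted p = 0.00502, exact permutation test over 12 flies). Copia had 11 in 9 flies, with means of 5.98% and 0.971% (adjusted p = 0.00502, exact permutation test over 12 flies). Accord2 had 12 in 8 flies, with means of 6.65% and 0.429% (adjusted p = 0.00974, exact permutation test over 12 flies). Among records with at least 3 reads, copia and accord2 no longer passed, with adjusted p of 0.0660 and 0.127 (exact permutation tests over 11 flies). ZAM and gtwin, the ERVs the study followed, had no Y record in any fly. They had only 19 and 2 records on the other chromosomes of the 12 flies. Of the 81 families tested, 57 had no Y record in any fly.

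**Figure D3:**
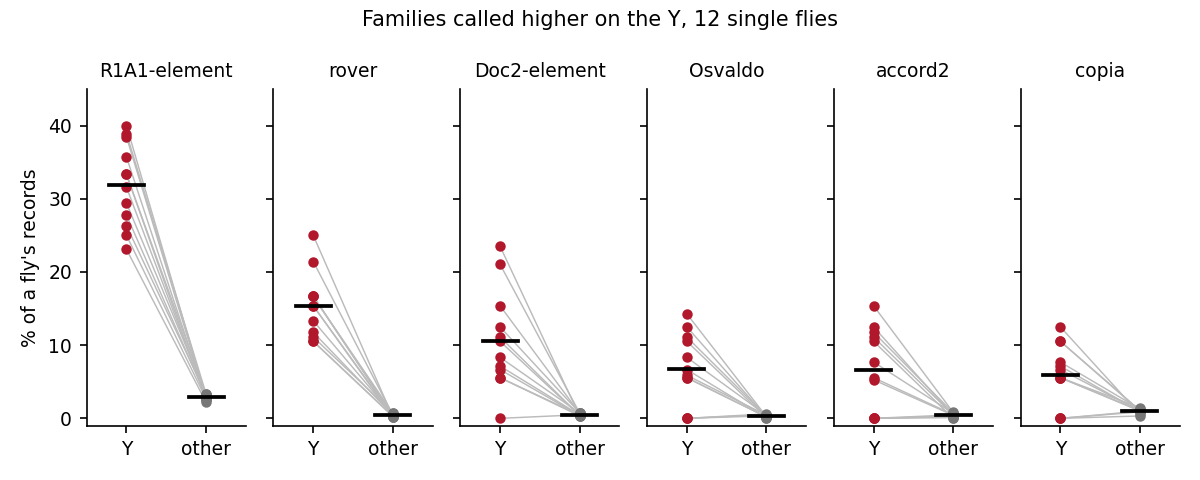
Share of each fly's Y records (left, red) and of its other records (right, grey) that belong to the 6 families called higher on the Y, in percent. Each point is 1 of 12 flies, grey lines join the values of a fly, and black bars are means, such as 31.9% on the Y and 2.87% elsewhere for R1A1-element.

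To see which Y records of the pools remained in single flies, a pool record was counted as found when any fly had a record, of any family, within 20 bp of it. In the piwi-sKD pool, 16 of 351 Y records were found in at least 1 fly (4.56%, 2.83 to 7.28), against 1349 of 4672 on the other chromosomes (28.9%, 27.6 to 30.2). In the no-KD pool, 19 of 302 were found (6.29%, 4.06 to 9.62), against 1259 of 3978 (31.6%, 30.2 to 33.1). No other chromosome came near the Y, as the lowest, 2R, had 21.7% of its piwi-sKD records and 24.8% of its no-KD records in a fly.

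The gap was wide at high support. Of Y records with at least 20 reads, 4 of 28 were found in the piwi-sKD pool (14.3%, 5.70 to 31.5) and 4 of 26 in the no-KD pool (15.4%, 6.15 to 33.5). On the other chromosomes, 78.0% and 74.0% of records with such support were found. At 2 reads the shares were 3.23% on the Y and 7.93% elsewhere in the piwi-sKD pool, with overlapping intervals, and 4% and 8.73% in the no-KD pool. With a window of 500 bp, 10.5% of the Y records of the piwi-sKD pool and 59.5% of its other records were found, and 13.2% and 65.8% in the no-KD pool.

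**Figure D4:**
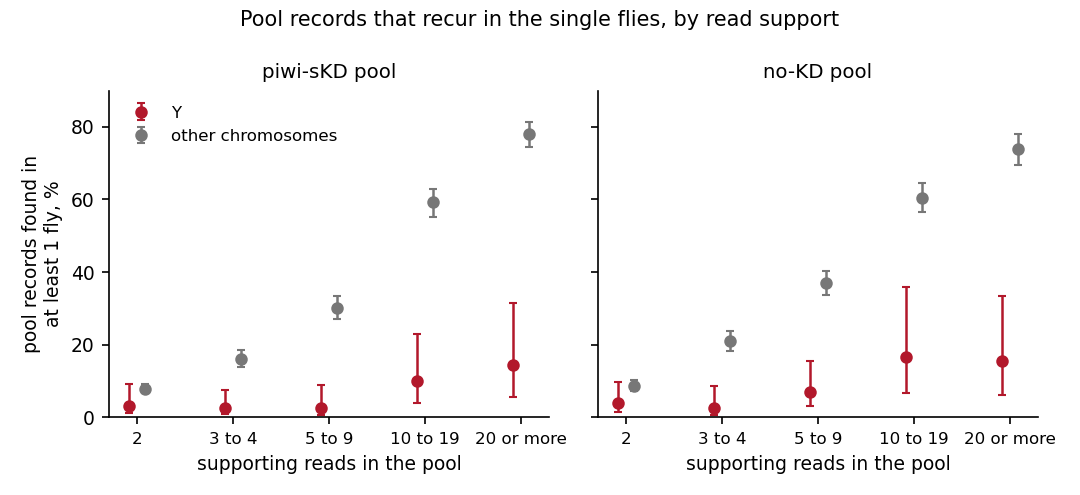
Percent of pool records with a record within 20 bp in at least 1 of 12 flies, by the number of supporting reads in the pool, for the Y (red) and the other chromosomes (grey), with 95% Wilson intervals. At 20 or more reads, 14.3% of Y records and 78.0% of other records of the piwi-sKD pool recur, and 15.4% and 74.0% of those of the no-KD pool.

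Few Y records of any class were found in a fly. In the piwi-sKD pool 8 of 142 ERV, 7 of 108 non-LTR and 1 of 101 DNA records had a fly partner, and in the no-KD pool 8 of 101, 10 of 114 and 1 of 87. For 1360, 1 of 90 Y records of the piwi-sKD pool had one, against 50 of 232 on the other chromosomes (21.6%). In the no-KD pool this was 1 of 78 against 43 of 197 (21.8%). The partner of this 1360 record was of another family in both pools. Of the 16 records found from the piwi-sKD pool, 13 had a partner of their own family, 10 were found in 1 fly, and 3 in at least 6 flies. Of the 19 from the no-KD pool, these counts were 16, 9 and 5.

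Seen from the flies, fewer Y records had a partner in a pool than records elsewhere. A mean of 20.4% ± 8.13 of a fly's Y records had one in the piwi-sKD pool, against 49.7% ± 3.91 of its other records, and 30.9% ± 10.9 had one in the no-KD pool, against 47.6% ± 2.79 (SD, n = 12). Both differences, -29.28 and -16.75 points, were negative in 12 of 12 flies (adjusted p = 0.00130 for each, exact permutation test). Their size depended on the window. They were -10.52 and -7.21 points with touching intervals and -7.82 and -5.76 points within 500 bp, and each still passed (highest adjusted p = 0.0234, exact permutation test over 12 flies). Of the 184 Y records, 38 were in both pools, 1 in the piwi-sKD pool alone, 19 in the no-KD pool alone and 126 in neither (68.5%). On the other chromosomes, 42.0% of fly records were in neither.

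The Y records were nonetheless shared among flies. A partner in another fly was found for 75.9% ± 10.2 of Y records and 81.9% ± 2.89 of the others (SD, n = 12), a difference of -6.00 points that was lower on the Y in 9 of 12 flies (adjusted p = 0.0480, exact permutation test). That call was lost in 5 of the alternatives tried, and with intervals required to touch the difference was 1.13 points (adjusted p = 0.687, exact permutation test over 12 flies). Of the 184 records, 44 were listed in 1 fly only (23.9%), and 12 matched records in all 12 flies. There were 37 that had no partner in either pool or in another fly, 1 to 5 in each fly.

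Y records within 500 bp of each other were joined, whatever their family, into 257 loci. Of these, 1 was listed in all 14 libraries and 91 in 1 library. The piwi-sKD pool had 210 loci and the no-KD pool 184, and 158 were in both, of which 136 were in no fly. The flies had 43 loci, 21 of them in no pool. There were 7 loci listed in at least 6 flies.

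The locus in all 14 libraries was a rover insertion at chrY:484898-485221 (dm6), inside the span of kl-3, which encodes a dynein heavy chain of the sperm tail. It had 14 reads in the piwi-sKD pool, 4 to 32 in the flies (median 15) and 9 in the no-KD pool. The fly records fell into 2 groups, each with all 12 flies. The first had 14 records that started between 484898 and 485034, and the second had 12 that started between 485207 and 485220. The pools each listed 1 record between them, starting at 485085 (piwi-sKD) and 485082 (no-KD), so that the 20 bp window found this pool record in 1 fly only.

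A Doc2-element locus at chrY:124449-124477, inside the span of kl-5, another dynein heavy chain gene, was listed in 11 flies and in neither pool. Read support was 2 to 14 in those 11 flies, with 14 in fly 5, 11 in fly 3 and 8 in fly 2, and fly 10 had no record. Copia at chrY:3302867-3303112 was listed in 9 flies (highest 5 reads) and in both pools (19 reads with piwi-sKD and 14 with no-KD, a 1360 record in the same locus included). Osvaldo and accord2 shared a locus at chrY:1705721-1706117, in the span of Ppr-Y, with 25 reads in the piwi-sKD pool, up to 7 in a fly (10 flies) and 18 in the no-KD pool.

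The other 3 loci found in at least 6 flies were R1A1-element sites close to each other. The locus at chrY:993092-994380 had 72 reads in the piwi-sKD pool, a median of 5.5 in the flies (11 of 12 flies, up to 8 reads) and 76 in the no-KD pool. The locus at chrY:955532-956238 had 23, a median of 5.5 (11 of 12 flies, up to 12 reads) and 15. The locus at chrY:988804-990131, with an F-element record beside R1A1-element, had 74, a median of 4 (9 of 12 flies, up to 13 reads) and 57. The first and the last of these were the only ones among the 10 loci deepest in the pools that any fly listed.

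Roo at chrY:1450375-1450581, accord2 at chrY:1099232-1099245 and accord2 at chrY:2683371-2683833 were each in both pools and in 5 flies, with at most 5 reads in a fly. Roo is a common LTR family of the species. These complete the 10 loci found in most libraries.

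The other 8 of the 10 deepest pool loci had no fly record. The deepest was a 1360 site, listed at 958806 in both pools, with 364 reads (piwi-sKD) and 298 reads (no-KD). A TART-A site had 182 reads with piwi-sKD (start 3019153) and 119 with no-KD (start 3019244). A 1360 site in the Su(Ste):CR42407 gene had 163 reads (893979) and 106 (893978). The G2 locus at chrY:2778430-2778817 had 85 and 66 reads, and the locus of Q-element and HeT-A at chrY:564105-564396 had 62 and 67.

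Y records were unevenly spread along the chromosome. The other chromosomes were not binned, and a site counts again in each library that lists it. In bins of 100 kb, 37 bins covered the listed positions, 4 were empty, the median bin had 13 records, and the 3 fullest held 34.2% of all Y records. The fullest, 900001 to 1000000, had 60 records in the piwi-sKD pool (17.1%), 52 in the flies (28.3%) and 58 in the no-KD pool (19.2%). In this bin 29 piwi-sKD and 26 no-KD records were 1360, and all 52 fly records were R1A1-element. The second, 3000001 to 3100000, had 33 records in the piwi-sKD pool, 0 in the flies and 27 in the no-KD pool. The third, 1000001 to 1100000, had 23, 14 and 19. The flies listed records in 21 of the 37 bins.

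**Figure D5:**
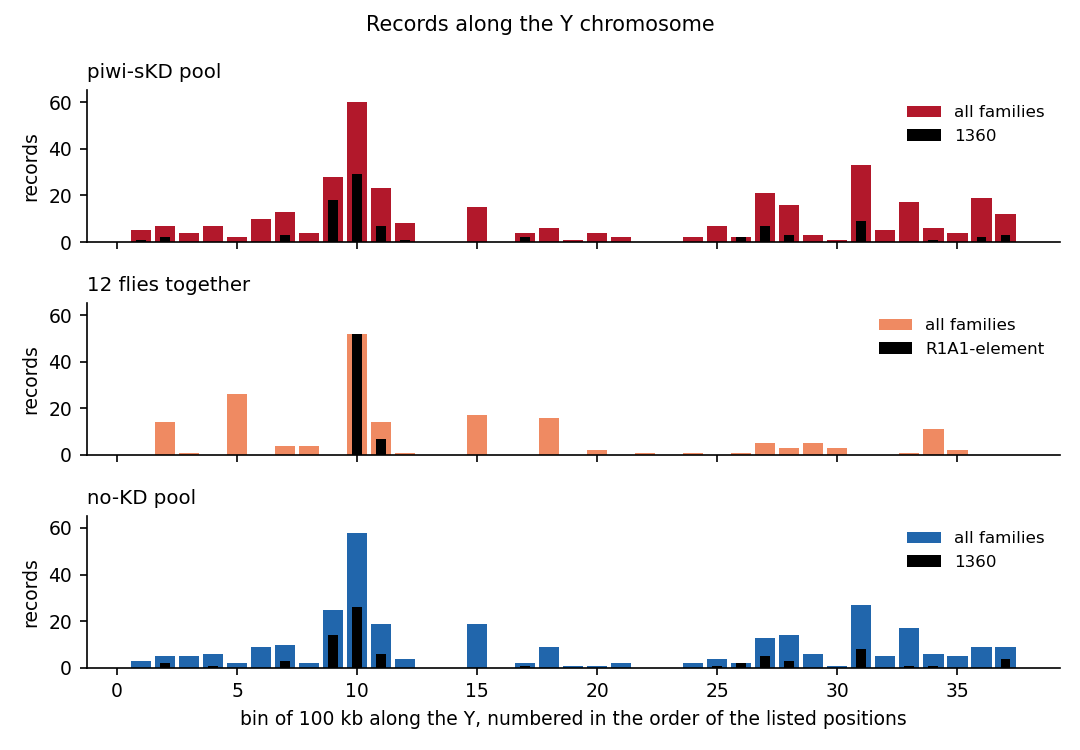
Y records in bins of 100 kb in the piwi-sKD pool, the 12 flies summed and the no-KD pool, with 1360 (pools) or R1A1-element (flies) drawn in black over all families. The tenth bin is the fullest in each, with 60, 52 and 58 records, and the fly records there are all R1A1-element.

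The first of these bins and parts of its neighbours hold the annotated Su(Ste) repeats, 24 genes between 869892 and 1040412. This stretch is 4.68% of the span from the first to the last Y record. It held 84 of 351 records in the piwi-sKD pool (23.9%, 19.8 to 28.7), 59 of 184 in the flies (32.1%) and 80 of 302 in the no-KD pool (26.5%, 21.8 to 31.7). The 59 fly records lay in 5 loci that recur between flies, so no interval is given for them. In it were 47 of the 90 Y records of 1360 in the piwi-sKD pool, 0 of 3 in the flies and 40 of 78 in the no-KD pool. R1A1-element had 12 of 12 Y records there in the piwi-sKD pool, 59 of 59 in the flies and 11 of 12 in the no-KD pool. Few 1360 records lay inside a Su(Ste) gene itself, 4 with piwi-sKD and 6 with no-KD.

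Neighbouring records were common on the Y and elsewhere. In the flies 29.5% ± 10.01 of Y records lay within 500 bp of another record of the same library, against 23.1% ± 4.80 elsewhere (SD, n = 12), higher on the Y by 6.37 points in 9 of 12 flies (adjusted p = 0.0234, exact permutation test). Of the 56 Y records with such a neighbour, 26 were the rover site listed at 2 positions. Without it, 30 of 158 remained, and the mean share was 16.8% on the Y and 23.1% elsewhere, lower on the Y by a mean difference of -6.32 points that did not pass (9 of 12 flies; adjusted p = 0.0731, exact permutation test). In the piwi-sKD pool these shares were 60.4% and 58.3%, and in the no-KD pool 57.9% and 60.3%. With records of a family within 500 bp merged, the share in the flies was lower on the Y and the difference passed, as given in the last section.

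The 12 named Y genes, some with very long introns, cover 28.0% of the span of the records, introns included. They held 69 of 351 Y records in the piwi-sKD pool (19.7%, 15.8 to 24.1), 59 of 184 in the flies (32.1%) and 49 of 302 in the no-KD pool (16.2%, 12.5 to 20.8). The fly count lists a site again in each fly that has it, so no interval is given and the shares are not like for like. Exons were not given in the gene table, so exonic and intronic positions were not separated. Kl-3 held 10 records in the piwi-sKD pool, 26 in the flies, all of them the rover site, and 10 in the no-KD pool. Kl-5 held 8, 14 and 4, with 11 of the 14 at the Doc2-element locus. Ppr-Y held 11, 16 and 11, with 11 of the 16 at the Osvaldo and accord2 locus. ORY, which encodes a coiled-coil protein, held 20 records in the piwi-sKD pool, 0 in the flies and 10 in the no-KD pool, the highest density of the long genes (35.3 and 17.7 records per 100 kb in the pools). WDY, which encodes a WD-repeat protein, held 9, 1 and 6, and kl-2, another dynein heavy chain gene, held 7, 2 and 6. PRY, CCY and ARY held 1 or 2 records in the piwi-sKD pool and none in a fly, and FDY and the protein phosphatase genes Pp1-Y1 and Pp1-Y2 held none in any library.

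To compare the 2 pools on the Y, pool-specific records were those with no record within 20 bp in the other pool. The piwi-sKD pool had 169 specific Y records (48.1%) and the no-KD pool 120 (39.7%), a ratio of 1.41 (exact 95% interval 1.11 to 1.79). On the other chromosomes the ratio was 1.35, and the difference from the Y did not pass the test (odds ratio 1.04; Fisher's exact test, two-sided, p = 0.759, adjusted p = 0.886 over 7 chromosomes). This test compares 2 libraries and not 2 conditions, and the piwi-sKD library had 44182 supporting reads on the other chromosomes, against 35751 in the no-KD library. Many specific records lay close to a record of the same family in the other pool, since 55.0% of the piwi-sKD ones and 63.3% of the no-KD ones had one within 500 bp.

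ZAM and gtwin, LTR retrotransposons with a viral type of envelope gene that are silenced by Piwi in follicle cells, were rare on the Y. ZAM had 2 Y records in the piwi-sKD pool, at 323303 and 959168 with 6 reads each, and 1 in the no-KD pool, at 323288 with 6 reads. The first of these had its partner in the other pool within 20 bp, so that 1 ZAM record, at 959168, was specific to the piwi-sKD pool. Gtwin had 1 record in each pool, at 975536 with 7 reads (piwi-sKD) and at 975515 with 2 reads (no-KD). That pair fell outside the 20 bp window.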

How the data were processed

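The authors mapped paired-end reads to dm6 with BWA (0.7.5a-r405 for the pools, 0.7.10-r789 for the flies) and called non-reference insertions with T-lex *de novo*. The deposited lists give chromosome, start, end, family and support. The study warns that a prediction found in 1 library only can be a false positive. Such calls can come from chimeric fragments of TE and genome made during library preparation. No filter against them was added here, so a record is a prediction and not a proven insertion. Support as deposited is a read count of at least 2 for the flies and the piwi-sKD pool. For the no-KD pool, the authors deposited a scaled signal. All its values (100%) were whole multiples of 1.23 and were divided by that factor. What the factor stands for is not given in the sources used here. The division took this scaling out, so the no-KD read counts given here are below the deposited values. The study reports a higher coverage for the piwi-sKD pool than for the no-KD pool. For its own insertion counts it subsampled the piwi-sKD reads to match. No such matching was added here, so read counts and record numbers of the 2 pools are not set at equal depth. Whether positions count from 0 or 1 is not given in the sources used here.

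The members and lists were chosen with earlier results of these data known. All Y records were kept. Within each fly, shares on the Y were set against X, 2L, 2R, 3L, 3R and 4 by an exact paired sign-flip permutation test (4096 patterns, two-sided), adjusted by Benjamini-Hochberg over 8 measures or 81 families. The flies are of 1 line, so p-values measure only the spread between these flies. On simulated data without a difference, the family test made no higher calls but did make lower ones, so only higher ones were read. The simulated records were drawn independently in each fly, whereas real sites recur between flies. The simulation therefore cannot show how often shared sites alone would give a higher call. Intervals are Wilson 95% unless called exact. Families were put into 60 ERV, 39 non-LTR and 24 DNA by their names. The study gives a slightly higher number of ERV families, so the ERV class here is not exactly that of the study.

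The text names families with an adjusted p under 0.05 over the flies, the 10 with most Y records, ZAM and gtwin, the 10 loci in most libraries, the 3 fullest bins, and 12 Y genes; others were chosen after their values were seen. Genes were taken from the RefSeq table of the same release, of whose 123 Y rows 113 were used, since the rest restart at low positions. Alternatives were at least 3 reads, merged records, the site in all libraries left out, all sequences, other fly minimums, windows and distances. Python 3.11.15, numpy 2.4.6, pandas 2.3.3, scipy 1.17.1 and matplotlib 3.10.9 were used.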

Additional observations from a re-analysis of the deposited data

How the results depend on the processing

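Most values kept their direction and their side of the threshold. Of the alternatives to the main results, 76 planned and 19 added ones made no such change. Among the other planned ones, 5 lost a call, 3 reversed a direction and 6 moved a value that has no test. Among the other added ones these counts were 1, 3 and 3. With at least 3 reads the Y share of the piwi-sKD pool was 8.02%, and with records of a family within 500 bp merged that of the no-KD pool was 8.20%. The share of Y records with a partner in another fly, minus that of other records, lost its call at 3 reads (-2.99), with flies of at least 10 Y records (-5.63), within 100 bp (-2.94), within 500 bp (-1.05) and within the same family (-5.23), and was 1.13 with touching intervals. The ratio of pool-specific Y records lay below that of the other chromosomes, not above it, with touching intervals (1.199 against 1.22), within 100 bp (1.51 against 1.55) and after merging at 500 bp (1.46 against 1.53), and above it at 3 or more reads (1.75 against 1.26, p = 0.0318 and adjusted p = 0.223, Fisher's exact test) and within 500 bp (2.18 against 1.86). No adjusted p over its alternatives was under 0.223. Without the Y site that all libraries list, the ERV difference lost its call (1.68 points) and the difference in records with a neighbour was -6.32 points; with records of a family within 500 bp merged the difference in neighbours was -4.21 points (adjusted p = 0.00846, exact permutation test), and it was 16.8 points at 3 reads and 16.7 points with a distance of 5000 bp. The difference in records with a partner in the no-KD pool was -26.14 points at 3 reads. The share of Y records found in a fly was 1.71% with touching intervals, 10.5% within 500 bp and 11.8% at 10 or more reads in the piwi-sKD pool, and 2.65%, 13.2% and 16% in the no-KD pool; on the other chromosomes it was 13.7%, 59.5% and 68.1%, and 15.0%, 65.8% and 66.1%. Joining within 100 bp gave 391 loci. The cause was not tested for any of these. Merging at 500 bp, the limit of 10 reads and leaving out the shared site were chosen after seeing the data. The 2 pools have no replicate, and a fly has 8 to 19 Y records. A record under 2 reads is not listed, so a site missing from a fly may be below its depth. At 20 or more pool reads, 78.0% and 74.0% of records on the other chromosomes were found in the same flies, against 14.3% and 15.4% on the Y. The sex of the flies is not given, so which of them carried a Y is not known. Neither depth nor sex was tested. The fly values pair the Y with the other chromosomes of the same fly, while the 2 pools, 1 library each, could not be paired with anything.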
